A study of Homo sapiens with 12 samples.

Results

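Transcripts of 10 amino acid transporter genes were followed: SLC7A11, SLC3A2, SLC7A5, SLC7A1, SLC6A9, SLC1A4, SLC1A5, SLC38A1, SLC38A2 and SLC7A6. They were taken by symbol from a gene count table of 30017 symbols, and all 10 passed the filter on low counts that kept 16010 genes for testing. RNA selected by polyA came from cells titled THP-1, a line established from a human monocytic leukaemia and grown in RPMI with serum. Every group had been electroporated with Cas9 and derived from single cells. The wild-type groups received no guide, and the IRAK4 knockout groups received a guide against IRAK4, a kinase that relays signals from interleukin-1 and Toll-like receptors. Each genotype was exposed for 12 h to the vehicle DMSO or to 50 nM CC-885, a cereblon modulator that directs the translation termination factor GSPT1 to degradation, which gave 4 groups of 3 libraries. The number of clones per genotype is not given, so the edit and differences between clones cannot be told apart. Whether the 3 libraries of a group are separate cultures is not given either, so p-values cover the spread among these libraries and nothing beyond it.

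Amino acid transporters of the solute carrier families bring essential and non-essential amino acids across the plasma membrane and exchange one amino acid for another. Several work as pairs: the glycoprotein SLC3A2 (4F2hc, CD98) is the heavy chain that carries light chains such as SLC7A5, SLC7A11 and SLC7A6 to the cell surface. When amino acids run short or other stresses lead to phosphorylation of the initiation factor eIF2, the transcription factor ATF4 is translated and pairs with C/EBP proteins at composite DNA elements. Many genes for amino acid uptake and synthesis are known targets of this integrated stress response.

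The stretches printed here are those near annotated transcription starts that hold the core of such a composite element, TGATGNAA, or a CACGTG E-box, the site of MYC and related factors. RefSeq windows of 300 bases (250 before and 50 after each start, GRCh38.p14, both strands searched) were matched by symbol for 9 of the 10 genes, all but SLC7A11, with 15 windows in all. TGATGNAA was found in 5 of those 9 genes and 5 of the 15 windows, against 3.62% of all 35116 windows and 4.46% of all 27305 genes with a window. CACGTG was found in 2 of the 9 genes and 2 of the 15 windows, against 7.26% of all windows and 8.77% of all genes with a window. The 2 motifs did not overlap. The sequences read 5′ to 3′ on the gene's strand with the motif in capitals, and TTNCATCA is TGATGNAA on the opposite strand.
SLC3A2 (chr11:62881719-62881748, plus strand): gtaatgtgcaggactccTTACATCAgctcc
SLC1A4 (chr2:64989381-64989410, plus strand): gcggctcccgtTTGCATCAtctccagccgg
SLC38A1 (chr12:46266502-46266531, minus strand): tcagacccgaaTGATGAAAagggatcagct
SLC7A1 (chr13:29595663-29595692, minus strand): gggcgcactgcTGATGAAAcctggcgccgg
SLC1A5 (chr19:46784893-46784922, minus strand): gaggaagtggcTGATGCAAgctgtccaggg
SLC7A5, E-box (chr16:87869621-87869648, minus strand): gccggacgacgCACGTGctccgagctgg
SLC1A5, E-box (chr19:46787327-46787354, minus strand): gcgggagtggtCACGTGgacaggacggg
Counted from the start base as 1, the TGATGNAA match began at 38 in SLC3A2, -7 in SLC1A4, -4 in SLC38A1, 8 in SLC7A1 and -97 in SLC1A5. The E-box began at -130 in SLC7A5 and, at another of its annotated starts, at -50 in SLC1A5. Such a match describes the letters in a window and was not tested as a binding site.

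Libraries held 46903984 to 56675539 counts, and levels are given as CPM with TMM scaling, relative to the bulk of genes. In bulk RNA, fewer cells expressing a gene and less RNA per cell cannot be told apart. Mean IRAK4 in DMSO libraries was 52.2 CPM for wild type against 8.26 CPM for knockout, and in CC-885 libraries 72.8 against 30.7 CPM. Raw IRAK4 counts were 364 to 1768 in the 6 knockout libraries and 2523 to 4131 in the 6 wild-type libraries, with no overlap. Mean GSPT1 was 223 CPM without and 253 CPM with the drug for wild type, and 180 CPM without and 298 CPM with it for knockout. Monocytic markers summed to 1190 to 3560 CPM per library, with 7 of 8 over 5 CPM in every group mean and CD14 at 1.2 to 3.74 CPM. T and NK cell markers summed to at most 20.9 CPM, of which the most abundant, NKG7, reached 19.1 CPM, while B cell markers summed to at most 8.61 CPM and erythroid markers to at most 0.673 CPM. The list for epithelial, stromal and endothelial cells summed to 92.2 to 459 CPM, nearly all of it PECAM1, a gene that monocytes also express. The third library of wild type under CC-885 stood apart: its counts differed from its partners by a chi-square of 76.1 and 62.3 per degree of freedom, against 4.1 to 21 between replicates elsewhere, so the tests that use it were also run without it. Its library name begins with 52, and the names of all other CC-885 libraries, in both genotypes, begin with 51. Under DMSO, the first wild-type library and the first and second knockout libraries have names that begin with 51, and the rest with 52. The prefix is thus spread unevenly over the groups, and its meaning is not given.

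In wild-type cells CC-885 raised 8 of the 10 transporter transcripts and lowered 1, SLC7A6, while SLC1A4 did not pass the test (edgeR quasi-likelihood, adjusted p under 0.05 over all genes tested). Among all genes tested, 35.7% were called higher and 36.6% lower, 72.3% in either direction. The rises ran from 1.64-fold for SLC7A1 to 32.3-fold for SLC6A9, and 6 of them were at least 2-fold. The median log2 fold change was 1.65 over the 10 genes and -0.03 over all genes tested. Wild-type libraries under the 2 treatments did not overlap for 9 of the 10 genes and for 73.8% of all genes tested. Without the third CC-885 library 8 were called higher and 1 lower. The log2 changes were then 3.20 for SLC7A11, 2.16 for SLC3A2, 2.19 for SLC7A5, 0.73 for SLC7A1, 5.06 for SLC6A9, 0.12 for SLC1A4, 1.17 for SLC1A5, 0.82 for SLC38A1, 2.15 for SLC38A2 and -0.37 for SLC7A6, with the same calls as with it. Added together, the 10 transcripts went, with no test of the sum, from 1382 ± 51.7 to 3797 ± 29.2 CPM in wild type and from 1083 ± 10.5 to 1898 ± 4.64 CPM in knockout (SD, n = 3 libraries). The treated wild-type mean was 3810 CPM without the third library.

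In knockout cells the count was again 8 higher and 1 lower, with SLC1A4 now the lower one and SLC7A6 not called. Among all genes 38.9% were called higher and 40.0% lower, 78.9% in either direction, and the median log2 fold change of the 10 genes was 0.77. Of these rises, those of SLC7A11 (8.93-fold), SLC6A9 (8.1-fold) and SLC3A2 (5.35-fold) were over 2-fold, and that of SLC1A5 reached 2-fold only after rounding. The test of the difference between the responses, knockout minus wild type, called 6 of the 10 genes lower and 1 higher, against 16.8% and 17.9% of all genes tested (34.7% in either direction), with a median of -0.40 for the 10 genes and -0.01 for all. Under upper-quartile scaling the split of all genes was 3291 lower and 2168 higher, against 2691 and 2871 with TMM, and the 10 genes had 7 lower and 1 higher. The 6 are SLC6A9, SLC38A2, SLC7A5, SLC1A4, SLC7A1 and SLC38A1. Without the third wild-type CC-885 library their differences were -2.04, -1.59, -1.22, -1.01, -0.48 and -0.31, and all 6 were called.

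**Figure D1:**
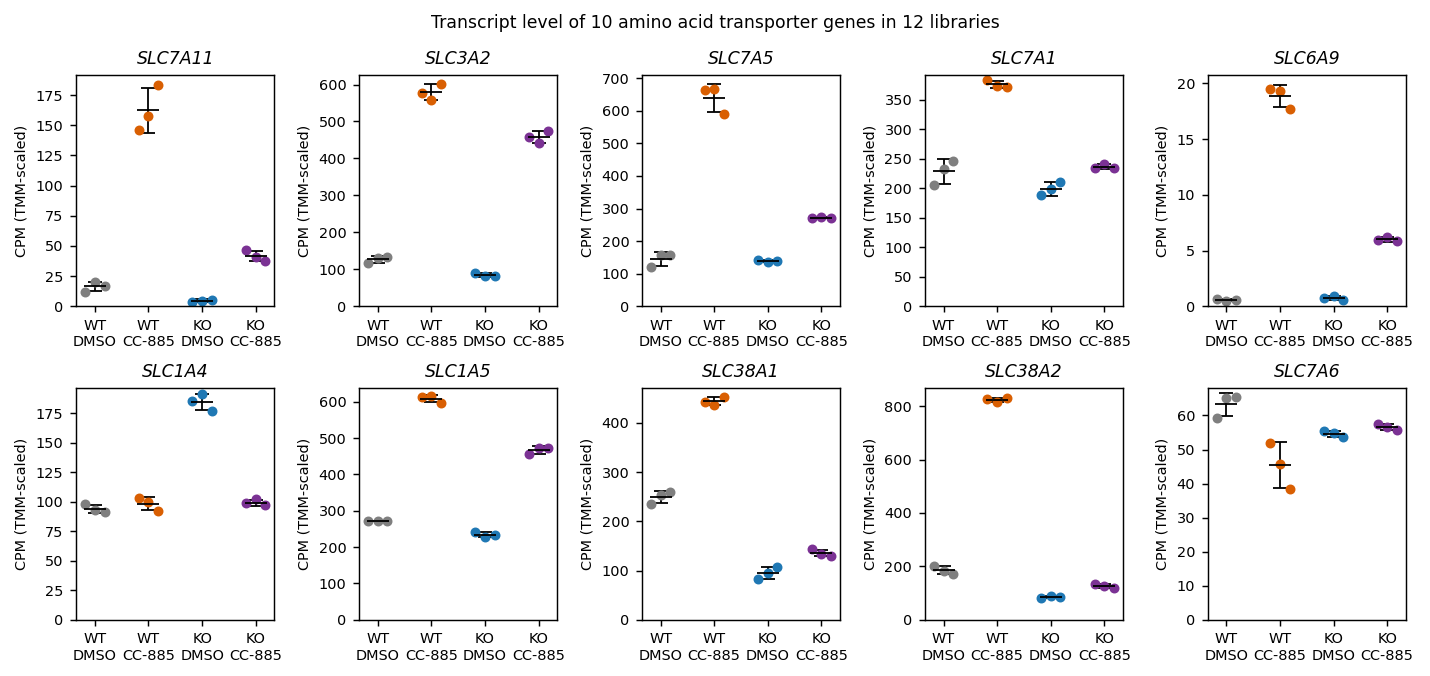
CPM of each transporter gene (y axis, a linear scale of its own from 0 for each gene) in the 12 libraries, by genotype (WT wild type, KO IRAK4 knockout) and treatment; points are libraries, the wide line is the mean and the bars are 1 SD of 3. With CC-885, SLC38A2 stands at 816 to 829 CPM in wild type and at no more than 133 CPM in knockout, while SLC1A4 is highest in knockout under DMSO.

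Among the heteromeric transporters, SLC3A2, the shared heavy chain, stood at 116, 132 and 133 CPM in DMSO-treated wild type and at 578, 559 and 601 CPM under CC-885. In knockout it stood at 91.0, 82.3 and 83.2 CPM under DMSO and at 457, 441 and 475 CPM under CC-885. Treated libraries lay above untreated ones in both genotypes with no overlap, and knockout lay below wild type in both treatments. The log2 fold change was 2.19 ± 0.07 (SE) in wild type (adjusted p = 1.32e-13) and 2.42 ± 0.07 in knockout (adjusted p = 2.43e-14), both by edgeR. The difference of the responses, 0.23 ± 0.09, missed the threshold (adjusted p = 0.0652) and passed it without the first wild-type DMSO library (0.29, adjusted p = 0.0176), without the third wild-type CC-885 library (0.26, adjusted p = 0.0245) or without the first knockout DMSO library (0.28, adjusted p = 0.0322). It also passed with the library-name prefix as a covariate (0.23, adjusted p = 0.0405). Knockout was lower than wild type by edgeR at both treatments, with a log2 difference of -0.57 ± 0.07 under DMSO (adjusted p = 2.9e-06) and -0.34 ± 0.06 under CC-885 (adjusted p = 0.000294).

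SLC7A11, the light chain of the cystine/glutamate exchanger that supplies cysteine for glutathione, stood at 12.2, 20.2 and 17.2 CPM in untreated and at 146, 158 and 183 CPM in treated wild type. The knockout values were 3.58, 4.74 and 5.66 CPM with vehicle and 46.4, 41.0 and 37.6 CPM with CC-885. All 4 groups were apart from each other, and the first wild-type DMSO library was the lowest of its group. CC-885 raised it 9.81-fold in wild type (log2 3.29 ± 0.19, adjusted p = 2.27e-08) and 8.93-fold in knockout (3.16 ± 0.20, adjusted p = 4.02e-08), by edgeR. The responses differed by -0.14 ± 0.27 (adjusted p = 0.736), a value that was 0.04 without the first wild-type DMSO library and 0.02 without the third knockout DMSO library. Knockout was 3.55-fold lower under DMSO (log2 -1.83 ± 0.20, adjusted p = 2.18e-05) and 3.9-fold lower under CC-885 (-1.96 ± 0.18, adjusted p = 2.97e-06) by edgeR. The antisense gene SLC7A11-AS1, which overlaps it, had 0 counts in every library.

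SLC7A5 (LAT1), the light chain that imports leucine and other large neutral amino acids, stood at 122, 158 and 157 CPM in wild type with vehicle and at 663, 666 and 590 CPM with CC-885. Knockout libraries held 143, 136 and 138 CPM without the drug and 271, 273 and 270 CPM with it. The genotypes overlapped under DMSO and were far apart under CC-885. The rise was 4.39-fold in wild type (log2 2.13 ± 0.09, adjusted p = 2.85e-12) and 1.95-fold in knockout (0.97 ± 0.08, adjusted p = 1.82e-08), and the responses differed by -1.17 ± 0.12 (adjusted p = 3.62e-06, edgeR). Under CC-885 knockout was 2.36-fold lower (log2 -1.24 ± 0.08, adjusted p = 5e-09). Under DMSO the difference between genotypes was -0.07 ± 0.08 (adjusted p = 0.515, edgeR), and its sign turned with upper-quartile scaling (0.06). The sign also turned among the libraries whose names begin with 51 (0.18), which hold only the first of the wild-type DMSO libraries. Without that library the difference was -0.18 (adjusted p = 0.029, edgeR), so the last 2 values both turn on it.

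SLC7A5 has near-identical copies, and how reads with several matches were counted is not given in the sources used here. The listed copies SLC7A5P1 and SLC7A5P2 had means of 1.43 to 18 CPM. Their response went the other way between genotypes: the knockout response was larger by 0.73 ± 0.20 for SLC7A5P1 (adjusted p = 0.00934) and by 0.78 ± 0.16 for SLC7A5P2 (adjusted p = 0.00147), both by edgeR.

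SLC7A6 (y+LAT2), the light chain that exports arginine in exchange for glutamine and sodium, was the only transporter of the 10 that CC-885 lowered in wild type. It stood at 59.3, 65.0 and 65.5 CPM under DMSO and at 52.0, 45.8 and 38.4 CPM under CC-885 in wild type, and at 53.7 to 57.5 CPM in the 6 knockout libraries. The third CC-885 library was the lowest. The fall in wild type was 0.48 ± 0.09 on the log2 scale by edgeR (-0.48, adjusted p = 0.000107), and the value without that library was -0.37 (adjusted p = 3.68e-05). Among libraries whose names begin with 51, with only the first wild-type DMSO library, it was -0.29. Among those that begin with 52, with only the third wild-type CC-885 library, it was -0.73. In knockout the change was 0.05 ± 0.09 (adjusted p = 0.614), with the opposite sign under upper-quartile scaling (-0.10), library size alone (-0.05) and no filter on low counts (-0.01). The responses differed by 0.53 ± 0.12 (adjusted p = 0.00328, edgeR), or 0.42 without the third CC-885 library. That difference was 0.32 among the libraries whose names begin with 51. Under CC-885 knockout was higher than wild type by 0.32 ± 0.09 (adjusted p = 0.00476), and under DMSO the difference of -0.21 ± 0.09 missed the threshold (adjusted p = 0.0533, edgeR), although it passed in 5 of the alternatives, among them leaving out the third CC-885 library (-0.21, adjusted p = 0.00438). SLC7A6OS, which overlaps SLC7A6, rose by 1.07 ± 0.06 in wild type, where SLC7A6 fell, and by 1.51 ± 0.06 in knockout, where SLC7A6 was not called.

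Levels of different genes were compared per kilobase of annotated exon. On this scale the ratio of SLC7A5 to SLC3A2 was 0.663 ± 0.0454 in wild type under DMSO and 0.641 ± 0.0643 under CC-885. In knockout the ratio was 0.941 ± 0.0303 under DMSO and 0.343 ± 0.0145 under CC-885. The ratio thus overlapped between treatments in wild type and did not in knockout, where heavy-chain transcripts rose more than SLC7A5. The ratio of SLC7A11 to SLC3A2 was 0.0356 ± 0.00655 in wild type under DMSO and 0.0771 ± 0.00699 under CC-885. In knockout it was 0.0151 ± 0.004 under DMSO and 0.0251 ± 0.00308 under CC-885. The ratio of SLC7A6 to SLC3A2 went from 0.209 ± 0.00462 to 0.0328 ± 0.00553 in wild type and from 0.268 ± 0.0127 to 0.0517 ± 0.0025 in knockout. These ratios were not tested, and they are ratios of transcripts, not of proteins at the membrane.

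**Figure D2:**
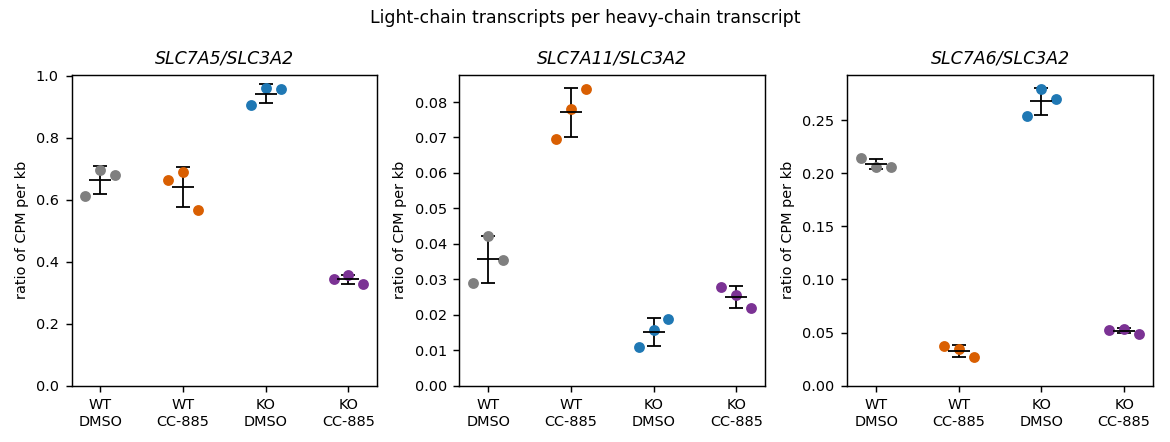
Ratio of light-chain to heavy-chain transcripts (CPM per kilobase, y axis, linear from 0) for SLC7A5, SLC7A11 and SLC7A6 over SLC3A2 in each library; points are libraries, the wide line is the mean and the bars are 1 SD of 3. The SLC7A5 ratio is lowest in knockout under CC-885, and the SLC7A11 ratio is highest in wild type under CC-885.

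SLC38A1 (SNAT1) and SLC38A2 (SNAT2), sodium-coupled importers of glutamine and other small neutral amino acids, were lower in knockout at both treatments. SLC38A2 stood at 200, 183 and 170 CPM in vehicle-treated wild type and at 827, 816 and 829 CPM under CC-885. For knockout the libraries read 82.8, 90.2 and 83.1 CPM (DMSO) and 133, 128 and 118 CPM (CC-885). Every treated knockout library was therefore below every untreated wild-type library. The rise was 4.47-fold in wild type (log2 2.16 ± 0.07, adjusted p = 1.74e-13) and 1.48-fold in knockout (0.57 ± 0.07, adjusted p = 7.91e-07), and the responses differed by -1.59 ± 0.09 (adjusted p = 2.53e-08, edgeR). Knockout was 2.16-fold lower under DMSO (log2 -1.11 ± 0.07, adjusted p = 1.83e-09) and 6.52-fold lower under CC-885 (-2.70 ± 0.07, adjusted p = 3.24e-13). Among the 10 genes, that is the largest difference between genotypes under CC-885 in these fits.

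SLC38A1 stood at 236, 254 and 259 CPM in untreated and at 442, 437 and 453 CPM in treated wild type. In knockout it stood at 82.9, 94.9 and 108 CPM under DMSO and at 143, 134 and 130 CPM under CC-885. The 4 groups did not overlap, and both knockout groups were below both wild-type groups. The rise was 1.78-fold in wild type (log2 0.83 ± 0.08, adjusted p = 8.02e-08) and 1.42-fold in knockout (0.51 ± 0.08, adjusted p = 1.93e-05) by edgeR. The difference between these responses, -0.32 ± 0.11 (adjusted p = 0.0333), was lost in 7 of the 12 fits that left out 1 library, where it ran from -0.22 to -0.34 with adjusted p of 0.0508 to 0.0885. These were the fits without the first or the second wild-type DMSO library, the second wild-type CC-885 library, the second or the third knockout DMSO library, or the second or the third knockout CC-885 library. Knockout was 2.62-fold lower under DMSO (log2 -1.39 ± 0.08, adjusted p = 1.13e-09) and 3.28-fold lower under CC-885 (-1.71 ± 0.08, adjusted p = 9.98e-11). Per kilobase, SLC38A1 reached 0.731 ± 0.0919 of SLC38A2 in wild type under DMSO and 0.289 ± 0.00321 under CC-885, against 0.600 ± 0.086 and 0.576 ± 0.0137 in knockout. Both genes lie on chromosome 12 in GRCh38.p14, SLC38A1 at 46183063 to 46269043 and SLC38A2 at 46358188 to 46372773, on the same chromosome as IRAK4 at 43758951 to 43789541. The distances from IRAK4 are 2.39 and 2.57 Mb, and whether the edited locus has a part in their lower level was not tested.

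Of the 2 SLC1 exchangers of neutral amino acids, SLC1A5 (ASCT2), a main route of glutamine uptake, stood at 273, 273 and 273 CPM in wild type with vehicle and at 614, 615 and 597 CPM with CC-885. The knockout values were 241, 227 and 234 CPM with vehicle and 456, 472 and 474 CPM with CC-885. The 4 groups did not overlap. It rose 2.23-fold in wild type (log2 1.16 ± 0.05, adjusted p = 6.13e-12) and 2.00-fold in knockout (1.00 ± 0.05, adjusted p = 1.71e-11, edgeR). The difference of the responses, -0.16 ± 0.07, missed the threshold (adjusted p = 0.0858, edgeR) and passed it with upper-quartile scaling (-0.24), with no filter on low counts (-0.24) and with DESeq2 (-0.17), where the adjusted p ran from 0.015 to 0.028. Knockout was lower by 0.38 on the log2 scale under CC-885 (-0.38 ± 0.05, adjusted p = 6.42e-06) and by less under DMSO (-0.22 ± 0.05, adjusted p = 0.00148), a call lost with upper-quartile scaling (-0.10, adjusted p = 0.16) and among the libraries whose names begin with 52 (-0.14, adjusted p = 0.0702).

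SLC1A4 (ASCT1), which carries serine, alanine and cysteine, had a different pattern. It stood at 97.6, 92.9 and 91.2 CPM in DMSO-treated wild type and at 103, 100 and 92.1 CPM under CC-885, and these overlapped. Knockout libraries held 185, 191 and 177 CPM without the drug and 98.7, 102 and 96.8 CPM with it. The knockout DMSO libraries were thus the only ones far from about 100 CPM, and the treated knockout libraries overlapped the treated wild-type libraries. By edgeR the change in wild type was 0.07 ± 0.06 (adjusted p = 0.286), and in knockout it fell by 0.89 ± 0.06 on the log2 scale (-0.89, adjusted p = 5.89e-10). The responses differed by -0.96 ± 0.08 (adjusted p = 1.13e-06). Knockout was 1.96-fold higher under DMSO (log2 0.97 ± 0.06, adjusted p = 2.08e-09), and under CC-885 the difference was 0.01 ± 0.06 (adjusted p = 0.928), with a sign that turned in 6 alternatives. Without the third wild-type CC-885 library it was -0.04 (adjusted p = 0.553), and without the second knockout CC-885 library -0.01.

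SLC6A9 (GLYT1), the sodium- and chloride-coupled glycine transporter, was the least abundant of the 10 per kilobase in every group and had the largest fold rise in wild type. It stood at 0.684, 0.524 and 0.541 CPM in wild type under DMSO, from 26 to 32 counts, and at 19.5, 19.3 and 17.7 CPM under CC-885, from 874 to 1003 counts. For knockout the libraries read 0.74, 0.892 and 0.576 CPM (DMSO) and 5.94, 6.24 and 5.86 CPM (CC-885). Genotypes overlapped under DMSO and were apart under CC-885. The rise was 32.3-fold in wild type (log2 5.01 ± 0.14, adjusted p = 6e-14), the 88th largest of 16010 genes, and 8.1-fold in knockout (3.02 ± 0.14, adjusted p = 8.35e-12). The responses differed by -2.00 ± 0.21 (adjusted p = 6.92e-06, edgeR), the 143rd lowest value of all genes tested. Under CC-885 knockout was 3.13-fold lower (log2 -1.65 ± 0.11, adjusted p = 4.96e-09), and under DMSO the difference was 0.35 ± 0.18 (adjusted p = 0.129), which passed without the third knockout DMSO library (0.50, adjusted p = 0.047). CCDC24, which overlaps SLC6A9, averaged 2.11 to 3.73 CPM per group and rose by 0.56 ± 0.17 in wild type and 0.77 ± 0.17 in knockout.

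SLC7A1 (CAT1), the carrier of arginine and lysine that works without SLC3A2, changed least among the transporters that rose in wild type. It stood at 206, 233 and 247 CPM under DMSO and at 383, 374 and 371 CPM under CC-885 in wild type. In knockout it stood at 188, 199 and 211 CPM under DMSO and at 235, 241 and 234 CPM under CC-885. Treated libraries were above untreated ones in each genotype, and the genotypes overlapped under DMSO. By edgeR the rise was 0.72 ± 0.07 in wild type (adjusted p = 5.42e-08) and 0.25 ± 0.07 in knockout (adjusted p = 0.00255), the latter lost with upper-quartile scaling (0.10, adjusted p = 0.165) and with library size alone (0.15, adjusted p = 0.061). The responses differed by -0.47 ± 0.09 (adjusted p = 0.00103). Knockout was lower under CC-885 (-0.67 ± 0.07, adjusted p = 3.31e-07), and under DMSO the call (-0.20 ± 0.07, adjusted p = 0.0194) was lost in 11 alternatives, in which it ran from -0.07 to -0.19 with adjusted p of 0.0523 to 0.368. Among these were the fits without the second or the third wild-type DMSO library and without the first or the second knockout DMSO library.

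**Figure D3:**
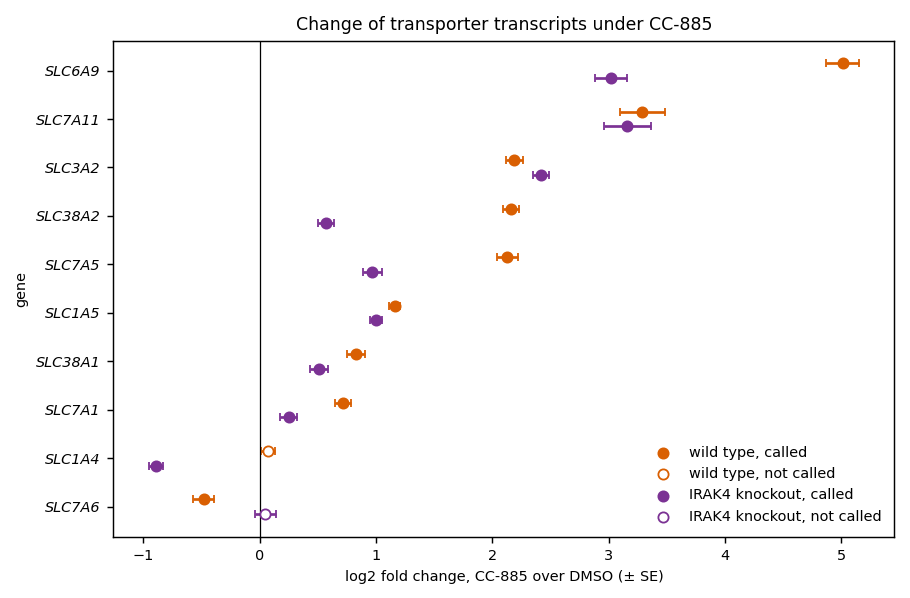
Log2 fold change of CC-885 over DMSO (x axis, with bars of 1 SE) for each gene in wild type (orange) and IRAK4 knockout (purple); filled points passed an adjusted p of 0.05 and open points did not. Among genes whose difference of responses was called, SLC6A9, SLC38A2, SLC7A5, SLC7A1, SLC38A1 and SLC1A4 have knockout points to the left of wild type. SLC7A6 has its knockout point to the right. Among those not called, SLC7A11 and SLC1A5 have knockout points to the left and SLC3A2 to the right.

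Between genotypes under DMSO, knockout was lower for 6 of the 10 genes and higher for 1, SLC1A4, while 28.4% of all genes tested were called lower and 21.3% higher. The median log2 difference was -0.22 for the 10 genes and -0.06 for all. Upper-quartile scaling turned the split of all genes from 4543 lower and 3415 higher to 3036 lower and 4685 higher, and the 10 genes then had 4 lower and 1 higher. The 6 were SLC7A11, SLC38A1, SLC38A2, SLC3A2, SLC1A5 and SLC7A1, of which the first 3 were lower by at least 2-fold, and libraries of the 2 genotypes did not overlap for 7 of the 10 genes, where 49.7% of all genes were called in either direction and 59.8% did not overlap. Under CC-885, knockout was lower for 8 and higher for 1, SLC7A6, against 30.8% and 27.8% of all genes. The median was -0.95 for the 10 genes and -0.02 for all, and 5 genes were lower by at least 2-fold: SLC38A2, SLC7A11, SLC38A1, SLC6A9 and SLC7A5. Libraries did not overlap for 9 of the 10 genes there, where 58.6% of all genes were called in either direction and 63.1% did not overlap. Without the third wild-type CC-885 library 8 were again lower and 1 higher, at -2.70 for SLC38A2, -1.87 for SLC7A11, -1.70 for SLC38A1, -1.69 for SLC6A9, -1.29 for SLC7A5, -0.68 for SLC7A1, -0.39 for SLC1A5, -0.31 for SLC3A2 and 0.21 for SLC7A6.

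**Figure D4:**
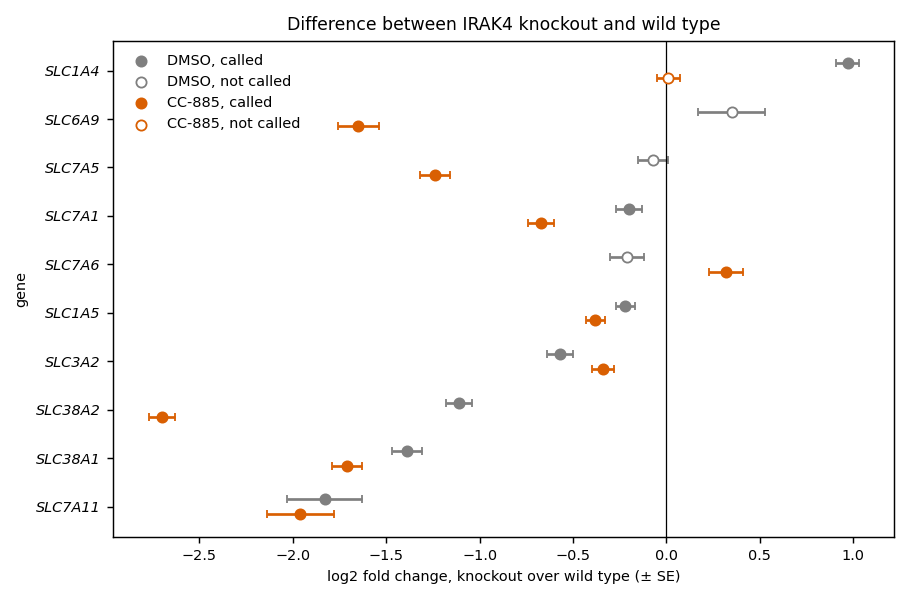
Log2 difference of knockout over wild type (x axis, with bars of 1 SE) under DMSO (grey) and CC-885 (orange); filled points passed an adjusted p of 0.05 and open points did not. SLC38A2 is the farthest left under CC-885 at -2.70, and SLC1A4 is the farthest right under DMSO at 0.97.

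The order of levels per kilobase also shifted. In wild type under DMSO, SLC1A5 was highest at 81.9 ± 0.127 CPM per kilobase, followed by SLC3A2 at 47.8 ± 3.64. SLC38A2 (36.9 ± 2.97), SLC7A5 (31.8 ± 4.44) and SLC7A1 (31.1 ± 2.83) came next, and neighbours among these 3 overlapped. Below them were SLC38A1 (26.8 ± 1.31), SLC1A4 (20.0 ± 0.71), SLC7A6 (9.95 ± 0.546), SLC7A11 (1.71 ± 0.417) and SLC6A9 (0.135 ± 0.0204). Under CC-885 SLC3A2 led in both genotypes, at 218 ± 7.96 in wild type and 172 ± 6.38 in knockout, with SLC1A5 next at 183 ± 3.09 and 140 ± 2.9. SLC38A2 was the third at 165 ± 1.42 in treated wild type and the fifth at 25.2 ± 1.46 in treated knockout, behind SLC7A5 (59.1 ± 0.338) and SLC7A1 (32.2 ± 0.529). In knockout under DMSO, SLC1A4 was the second, at 39.2 ± 1.5 behind SLC1A5 at 70.3 ± 2.07, and SLC3A2 and SLC7A5 overlapped at 32.2 ± 1.81 and 30.3 ± 0.703.

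Genes with the most similar pattern were those with the smallest root mean square difference in centred log2 CPM over the 12 libraries, among 11366 genes. For SLC6A9 they were ADM2 at 0.24 and CTH at 0.25, and for SLC7A11 IRF7 at 0.28 and ASNS at 0.49. For SLC3A2 they were JUNB at 0.12 and HEXIM1 at 0.15, for SLC7A5 WARS at 0.12 and LOC102723773 at 0.15, and for SLC38A2 PTPRO and IFI16, both at 0.32. SLC7A1 was nearest to GFPT1 (0.08) and KCNN2 (0.09), and SLC7A6 to RUNX3 and PLCB3 (both 0.05). SLC38A1 was nearest to PPP3CB (0.15) and PRICKLE1 (0.16), and SLC1A4 to SNTB1 (0.12) and FIG4 (0.13). None of the genes named here was another of the 10 transporters. A gene that varies little has small differences to many others, so these values compare neighbours within a row of 1 transporter and not between transporters.

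Other amino acid transporters moved in both directions. Of 44 further transporter genes listed, 22 were tested, and 5 were called higher and 12 lower in wild type, 6 higher and 12 lower in knockout, with medians of -0.28 and -0.47. For this list and those that follow, the shares over all genes tested were 35.7% higher and 36.6% lower in wild type. They were 38.9% and 40.0% in knockout, and 17.9% and 16.8% for the difference of responses. SLC38A5, a glutamine carrier of the same family as SLC38A2, fell by 1.51 ± 0.10 on the log2 scale in wild type (adjusted p = 6.63e-10, edgeR), from 57 to 20 CPM. The glutamate carriers SLC1A1 and SLC1A3 changed by -1.49 ± 0.14 and -1.21 ± 0.08, and the cationic amino acid carrier SLC7A2 by -1.37 ± 0.15. The other 22 of the list did not pass the filter, and none of them had more than 14 counts in a library.

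In the list of ATF4 and stress response genes, 15 of 17 were called higher and 2 lower in wild type, 14 higher and 2 lower in knockout. ATF4 itself rose from 235 ± 14.9 to 1350 ± 187 CPM in wild type and from 225 ± 7.11 to 1640 ± 85.6 CPM in knockout. Its response was larger in knockout, by 0.34 ± 0.12 (adjusted p = 0.0355, edgeR), while 12 of the 17 differences of responses on the list, knockout minus wild type, were called lower and 2 higher. The ATF4 call lies near the threshold, and its value without the third wild-type CC-885 library is not reported here. Upper-quartile scaling moved the median difference of responses over all genes by -0.078. The rise of CHAC1, which degrades glutathione, was smaller in knockout, with a log2 difference of responses of -3.19 ± 0.22 (adjusted p = 1.48e-07), at 52.2 CPM in treated wild type and 10.9 CPM in treated knockout. ATF3, a stress-induced transcription factor, reached 657 and 630 CPM and its responses differed by -0.05 ± 0.12 (adjusted p = 0.792). DDIT3 (CHOP) reached 588 and 520 CPM, with a difference of -0.51 ± 0.13 (adjusted p = 0.007), and PPP1R15A (GADD34), which reverses eIF2 phosphorylation, reached 873 and 1400 CPM, with a difference of 0.83 ± 0.08 (adjusted p = 3.41e-06). MYC, which binds E-boxes, went from 273 to 81.6 CPM in wild type and from 314 to 49.3 CPM in knockout. Whether MYC has a part in the levels of SLC7A5 or SLC1A5, which hold a CACGTG match near a start, was not tested.

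Among 16 genes of glutamine, proline, serine and glycine metabolism, 11 were called higher and 3 lower in wild type, and 6 higher and 8 lower in knockout, with medians of 0.74 and -0.14. The test of the difference called 8 lower and 1 higher in knockout. PSPH, the last enzyme of serine synthesis, went from 17.2 to 49.5 CPM in wild type and from 18.4 to 15.6 CPM in knockout, a difference of responses of -1.76 ± 0.10 (adjusted p = 2.05e-08, edgeR). GOT1, a transaminase of aspartate, went from 14 to 71.4 and from 11.3 to 18.6 CPM (difference -1.63 ± 0.12), and GPT2, an alanine transaminase, from 25.3 to 84.3 and from 36.2 to 61 CPM (difference -0.99 ± 0.08). ARG2, a mitochondrial arginase, rose to 10.2 and 10.4 CPM, with a difference of 0.35 ± 0.25 that did not pass (adjusted p = 0.295).

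In the list of glutathione synthesis and the NRF2 pathway, to which SLC7A11 supplies cystine, 5 of 16 genes were called higher and 9 lower in wild type, and 5 higher and 10 lower in knockout. The genes named below had the largest changes in wild type and all rose there, while most of the genes called were lower. The test of the difference called 8 lower and 0 higher in knockout, against 16.8% and 17.9% of all genes tested. NFE2L2, which encodes NRF2, rose from 85.3 to 707 CPM in wild type and from 87.5 to 821 CPM in knockout, and BACH1, a repressor that competes with NRF2 at its DNA sites, from 34.5 to 158 and from 40.9 to 225 CPM. GCLC, the catalytic subunit of glutamate-cysteine ligase, rose from 31.3 to 64.6 CPM in wild type, with a difference of responses of -0.06 ± 0.12 (adjusted p = 0.748, edgeR). OSGIN1 went from 2.83 to 8.8 CPM in wild type and from 3.61 to 3.81 CPM in knockout, a difference of -1.55 ± 0.19 (adjusted p = 1.81e-05).

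Genes that sense amino acids for the growth kinase complex mTORC1 moved in both directions, with 7 of 24 called higher and 12 lower in each genotype. Over all genes tested, 35.7% were higher and 36.6% lower in wild type, and 38.9% and 40.0% in knockout. MIOS and FLCN, parts of that sensing machinery, went from 35.4 to 84.1 and from 20.9 to 48.6 CPM in wild type, while SESN3 went from 315 to 145 and LAMTOR2 from 77.7 to 38.5 CPM. The sestrin SESN2 is counted with the stress response genes and not in this list. SESN2 went from 13.3 to 371 CPM in wild type and from 10.6 to 145 CPM in knockout. Of 8 ubiquitin ligases, chaperones and adaptors known to act on transporters, 3 were higher and 4 lower in each genotype. TXNIP and ARRDC3, arrestin-domain adaptors, rose by 2.76 ± 0.07 and 2.01 ± 0.08 in wild type by edgeR. The ligase NEDD4L changed by -1.22 ± 0.10 and the related NEDD4 by 0.84 ± 0.09.

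**Figure D5:**
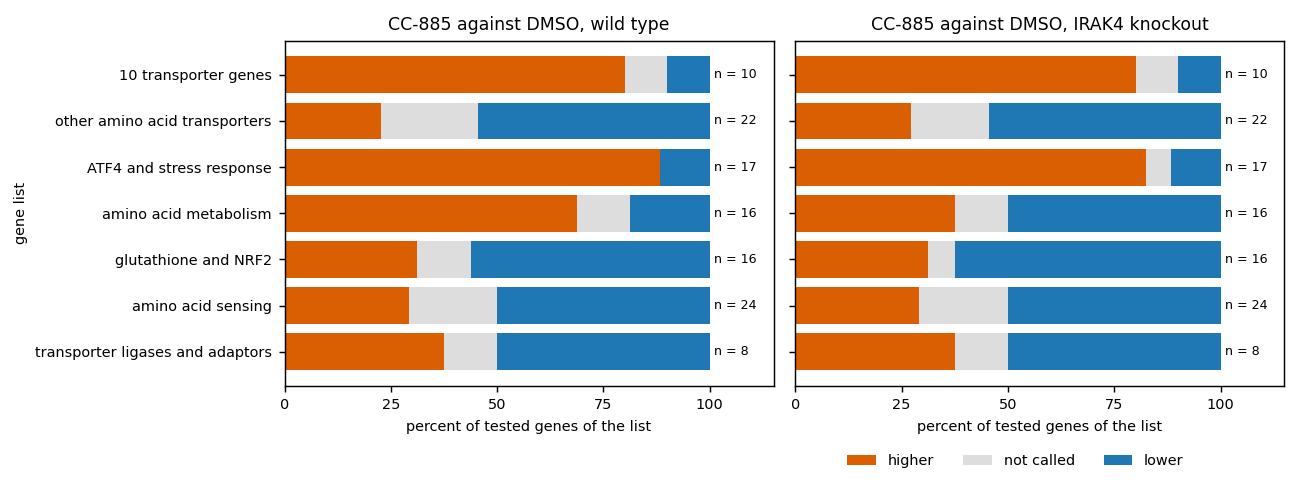
Share of tested genes of each list (x axis, percent) called higher (orange), lower (blue) or not called (grey) under CC-885 in wild type and knockout, with the number tested (n) beside each bar. Of the 10 transporters 8 were higher in both genotypes, while the 22 other transporters had 12 lower in both. Among all genes tested, which are not drawn, 35.7% were higher and 36.6% lower in wild type, and 38.9% and 40.0% in knockout.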

How the data were processed

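The authors' deposited table holds raw read counts per gene symbol for 12 polyA libraries, with no normalization. The submitters' processing notes name featureCounts 1.5.2, HISAT2 2.0.5, FastQC 0.11.2 and GRCh38. The labels' extraction protocol names a mouse build instead, but the table's symbols are human. How strand and multiply matching reads were handled is not given in the sources used here, so overlapping genes and near-identical copies are uncertain. The cell line tag counts upward between samples, and all were taken as THP-1 from the titles.

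The filter was filterByExpr by group (16010 of 30017 kept), library sizes were scaled by TMM, and the model was fitted with edgeR 4.0.16 (R 4.3.3, limma 3.58.1; robust quasi-likelihood, all 12 libraries, 1 coefficient per group). Benjamini-Hochberg adjustment ran over the 16010 genes in each of 5 contrasts, with calls at an adjusted p under 0.05. SEs derive from the F statistic. The fit was also run on simulated data, and the outcome is not reported here. Totals were 46903984 to 56675539 counts, and the fewest counts among the members were those of SLC6A9 under DMSO, at 26 to 51 per library. Marker levels are CPM of library totals without TMM factors.

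The 10 genes, the pathway lists and the markers were chosen with earlier results of these data known, and counts over them are descriptions. All 10 members are named in every comparison. From each list the text names at most 4 genes, the largest absolute changes in wild type among called genes reaching 5 CPM in a group mean, and ATF4, IRAK4, GSPT1 and MYC as references. SESN2 is named in addition, because the sensing list leaves it out. The genes with the pattern nearest to SLC1A5 are not reported here. The lists hold other transporters, ATF4 and stress response genes, glutathione and NRF2 genes, amino acid sensing genes, amino acid metabolism genes, transporter ligases and adaptors, and markers of monocytic, T and NK, B, erythroid, and epithelial, stromal and endothelial cells. Values per kilobase divide CPM by the union of GENCODE v29 exons, which may differ from the authors' annotation. Alternatives were other scalings, filters, DESeq2 1.42.0, blocks, the 51 and 52 prefixes of the library names and leaving out each library.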

Additional observations from a re-analysis of the deposited data

Results flagged for a closer look

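The response to CC-885 differed between the genotypes, by the interaction term of the edgeR fit, for 7 of the 10 transporters, where 34.7% of all genes tested were called. Given as knockout minus wild type on the log2 scale, the difference was -2.00 for SLC6A9, -1.59 for SLC38A2, -1.17 for SLC7A5, -0.96 for SLC1A4, -0.47 for SLC7A1, -0.32 for SLC38A1 and 0.53 for SLC7A6. SLC6A9, SLC38A2, SLC7A5, SLC7A1 and SLC38A1 rose in both genotypes and rose less in knockout. SLC1A4 fell in knockout from a level that was higher under DMSO and did not pass the test in wild type. SLC7A6 fell in wild type and did not pass the test in knockout. The calls for SLC6A9, SLC38A2, SLC7A5, SLC1A4, SLC7A1 and SLC7A6 held in all 22 alternatives run for each, and that for SLC38A1 in 15 of 22.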

How the results depend on the processing

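The counts of members called stayed within 1.5 times in every alternative run. Of 1160 recomputed values, 1111 kept their direction and their side of the threshold, 22 lost a call, 14 gained one and 13 changed sign; the cause was not tested. The changes of sign were in values that TMM scaling over all 12 libraries did not call. For SLC7A6 in knockout they were -0.10 (upper-quartile scaling), -0.05 (library size alone) and -0.01 (no filter). For SLC7A5 between genotypes under DMSO they were 0.06 (upper quartile) and 0.18 (51-prefix libraries). For SLC1A4 between genotypes under CC-885 they were -0.02 (no filter; block by library-name number), -0.03 (prefix as covariate), -0.04 (51-prefix libraries; without the third wild-type CC-885 library) and -0.01 (without the second knockout CC-885 library), in a range of -0.04 to 0.04 when 1 library was left out. For the SLC7A11 difference of responses they were 0.04 and 0.02, without the first wild-type or the third knockout DMSO library, in a range of -0.30 to 0.04 when 1 library was left out. Upper-quartile scaling moved the median of all genes by -0.148 in the knockout response and 0.122 between genotypes under DMSO. It gave summed member levels of 3598, 1174 and 1857 CPM in treated wild type, untreated knockout and treated knockout. Over 18 pairs of libraries with the same title number, deviations correlated at -0.0338 to 0.232, with 2 pairs over 0.1. These were the first wild-type CC-885 and first knockout DMSO libraries (0.21) and the third of each (0.232). Both pairs also share the prefix of the library name. Libraries with unlike numbers were not compared, so these values cannot tell whether libraries pair by number. With the title number as a replicate block, 9 and 9 members were called for CC-885 in wild type and knockout, 7 and 9 between genotypes under DMSO and CC-885, and 7 for the difference of responses, the same counts as without it. The 52-prefix alternative was added after seeing the data, and it was run only for the wild-type response and the genotypes under DMSO.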
